A study of Homo sapiens with 6 samples.

Results

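The respiratory chain and ATP synthase subunits were taken from a gene table of HaCaT cells, a spontaneously immortalised human keratinocyte line. Members were the genes whose names match the naming pattern of complex I subunits (NDUFA, NDUFB, NDUFC, NDUFS and NDUFV with a number), SDHA to SDHD, the UQCR genes, CYC1, COX4 to COX8 genes, ATP5 genes and the ND, CO, CYB and ATP genes of the mitochondrial genome. Pseudogene names were left out except among the ATP5 genes, and MT-ATP6 and MT-ATP8, whose names end in P and a digit but are genes, were kept. This gave 97 of the 22152 rows of the table. They comprised 82 subunits, of which 69 are nuclear-encoded and 13 are encoded in mitochondrial DNA, 12 ATP5 rows with a pseudogene name, and ATP5S, ATP5SL and COX7A2L, which are named like subunits but have other roles. NDUFA4 was counted in complex IV, where it is now placed.

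The cells had been transfected with 1 nM of a negative-control (NC) mimic or 1 nM of a miR-21-3p mimic, a synthetic double-stranded RNA that raises the amount of that microRNA. RNA was sequenced 48 h later from 3 libraries per group, which the submitters call biological replicates. The sample labels state polyadenylated RNA and an mRNA kit, whereas the methods of the paper speak of small-RNA libraries, and the labels were followed. The comparison asks which genes differ when miR-21-3p is overexpressed in keratinocytes. The recovered depth was 24402972, 24528089 and 26171237 reads in NC mimic replicates 1, 2 and 3, and 24805246, 24976237 and 27982497 reads in miR-21-3p mimic replicates 1, 2 and 3. The labelled cell type was matched by its markers, since KRT5 reached normalised counts of 123000 to 139000 and KRT14 of 33300 to 39800 over the 6 libraries.

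The respiratory chain passes electrons from NADH (complex I) and succinate (complex II) through ubiquinone to complex III, through cytochrome c to complex IV and so to oxygen, while protons are pumped out of the matrix by complexes I, III and IV. ATP synthase, or complex V, lets the protons flow back and makes ATP. Complex II is wholly nuclear-encoded, whereas the other complexes combine nuclear-encoded subunits, made in the cytosol and imported, with subunits encoded in mitochondrial DNA. Mitochondrial mRNAs are cut from long transcripts that cover most of each DNA strand, so their levels are not independent of each other. In keratinocytes, as in other cells, the chain also provides reactive oxygen species and supports nucleotide synthesis.

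The libraries differed in ways the groups do not explain. NC mimic replicate 1 was the lowest of its group for 39 of the 68 nuclear-encoded subunits tested, and NC mimic replicate 2 was the highest for 40 of them. Among the 5000 most abundant genes, the deviations of NC mimic replicate 2 from its group mean correlated at 0.541 with those of miR-21-3p mimic replicate 3, a description across genes, which are not independent replicates. The cause of this axis was not tested.

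Expression was tested with limma on log2(normalised count + 0.5) for the 14792 genes that passed a low-count filter, with Benjamini-Hochberg adjustment over all of them and a threshold of 0.05. At this threshold 904 genes, or 6.11% of those tested, were higher with the miR-21-3p mimic, and 689, or 4.66%, were lower. Of all genes tested, 28.5% had an unadjusted limma p under 0.05. Every miR-21-3p mimic library lay above every NC mimic library in 16.5% of them and below in 14.8%, so groups that do not overlap are common in these data. Of the 97 members, 92 were tested, and 12 of these (13.0%, beside 28.5%) had an unadjusted limma p under 0.05. ATP5G1 and NDUFS1 were called higher and MT-CYB lower, so that 2 members of 92 passed upwards and 1 passed downwards, below the share of all genes in either direction. The edgeR quasi-likelihood test on recovered reads, an alternative added after seeing the data, called 878 genes (5.94%) higher and 761 (5.14%) lower, and among the members it called the same 3 genes. In bulk RNA, fewer cells of a type and less RNA per cell cannot be told apart. The count over all genes depended on single libraries: it was 542 without NC mimic replicate 1, 2953 without NC mimic replicate 2, 176 without NC mimic replicate 3, 278 without miR-21-3p mimic replicate 1 and 365 without miR-21-3p mimic replicate 3. The number of members called higher was 8 without NC mimic replicate 2, 0 without NC mimic replicate 3, and 1 without NC mimic replicate 1, miR-21-3p mimic replicate 1 or miR-21-3p mimic replicate 3. Of all 14792 genes tested, 1625 were called higher without NC mimic replicate 2 and 95 without NC mimic replicate 3. Those called higher numbered 313, 146 and 202 without NC mimic replicate 1, miR-21-3p mimic replicate 1 and miR-21-3p mimic replicate 3, so the member counts followed the general rise and fall of calls. The number of members called lower was 2 without NC mimic replicate 2, and 0 without NC mimic replicate 1, NC mimic replicate 3 or miR-21-3p mimic replicate 1. Of all genes tested, 1328 were called lower without NC mimic replicate 2. Those called lower numbered 229, 81 and 132 without NC mimic replicate 1, NC mimic replicate 3 and miR-21-3p mimic replicate 1.

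**Figure D1:**
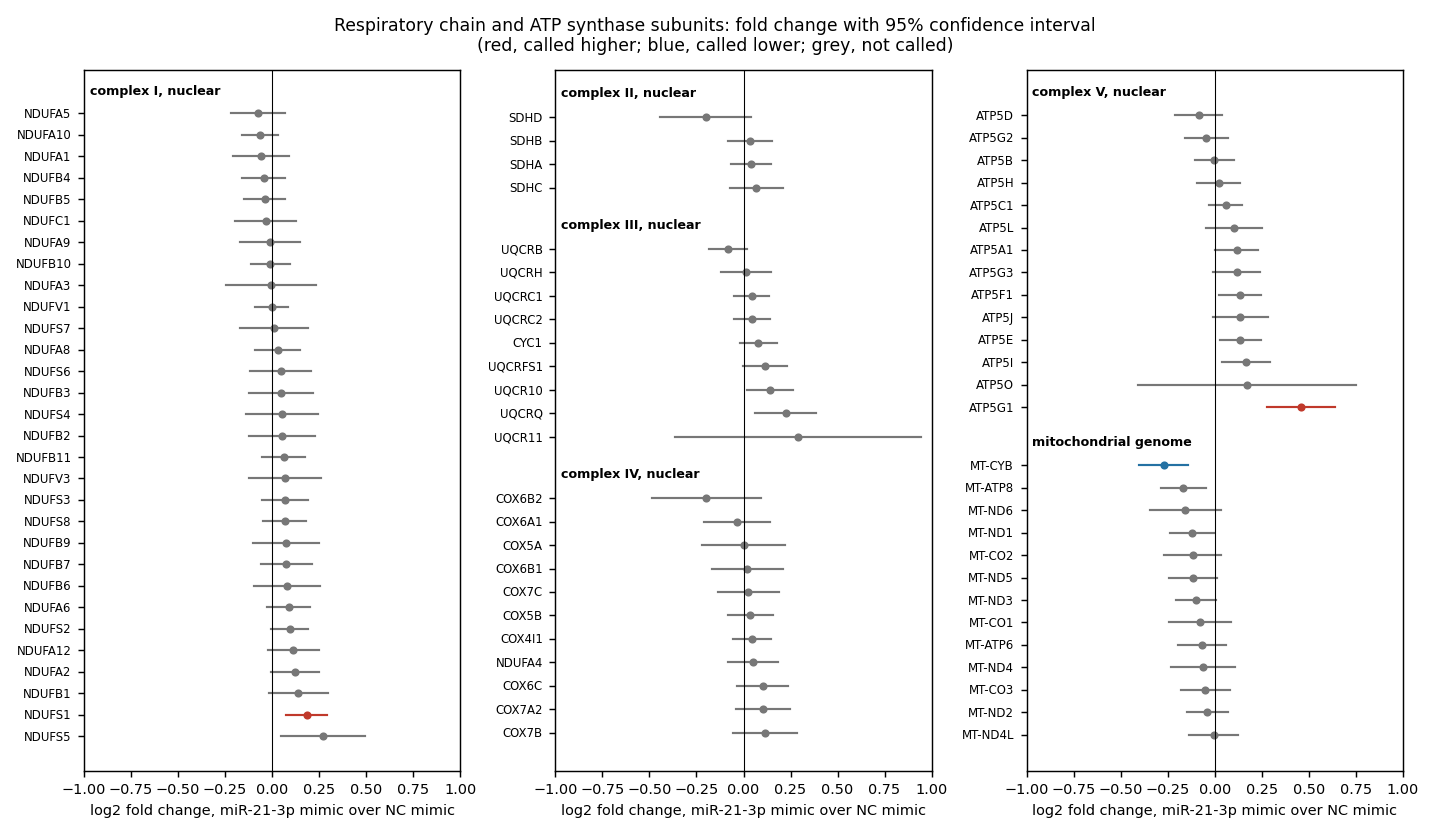
Log2 fold change (x axis, miR-21-3p mimic over NC mimic, 3 libraries each) of every subunit tested, by complex, with points for the limma estimate and lines for the 95% confidence interval. ATP5G1 and NDUFS1, in red, lie to the right of 0, MT-CYB, in blue, lies to the left, and the other subunits, in grey, were not called.

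The largest change among the subunits was in ATP5G1, 1 of 3 genes that encode the same mature subunit c, the ring of ATP synthase that turns as protons pass. The normalised count of ATP5G1 was 562, 606 and 502 in NC mimic replicates 1, 2 and 3, and 749, 710 and 838 in miR-21-3p mimic replicates 1, 2 and 3. Every miR-21-3p mimic library lay above every NC mimic library. The log2 fold change was 0.46 (95% confidence interval 0.28 to 0.64; limma, Benjamini-Hochberg adjusted p = 0.00907). Without NC mimic replicate 3 the log2 fold change was 0.39 and the limma adjusted p was 0.0547, while the gene was called without each of the other libraries.

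ATP5G2 and ATP5G3 code for the same mature protein behind different import signals, and were chosen for description after the values of ATP5G1 were seen. ATP5G2 gave normalised counts of 1530, 1450 and 1500 in the NC mimic and 1520, 1430 and 1390 in the miR-21-3p mimic libraries, with a log2 fold change of -0.046 (limma, Benjamini-Hochberg adjusted p = 0.6004). ATP5G3 gave 4010, 4510 and 4200 against 4360, 4500 and 4940, with a log2 fold change of 0.12 (limma, Benjamini-Hochberg adjusted p = 0.203). Neither passed the test, and the groups overlapped in both genes. With 1 library left out, the log2 fold change ranged from -0.083 to -0.018 in ATP5G2 and from 0.065 to 0.16 in ATP5G3. The share of ATP5G1 in the summed normalised counts of these genes was 9.21%, 9.23% and 8.09% in the NC mimic libraries and 11.3%, 10.7% and 11.7% in the miR-21-3p mimic libraries. Summed over the 3 genes, the normalised count was 6290 ± 244 (SD, n = 3) with the NC mimic and 6812 ± 308 with the miR-21-3p mimic.

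NDUFS1 encodes the largest subunit of complex I, which carries iron-sulfur clusters in the arm that takes electrons from NADH. Its normalised count was 1990, 2210 and 2120 in NC mimic replicates 1, 2 and 3 and 2430, 2380 and 2360 in miR-21-3p mimic replicates 1, 2 and 3. The groups did not overlap, and the log2 fold change was 0.18 (95% confidence interval 0.074 to 0.29; limma, Benjamini-Hochberg adjusted p = 0.0377). The limma adjusted p was 0.113 without NC mimic replicate 1, 0.121 without NC mimic replicate 3, and 0.145, 0.0652 and 0.0917 without miR-21-3p mimic replicates 1, 2 and 3. The call of NDUFS1 was therefore kept without NC mimic replicate 2 only.

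MT-CYB encodes cytochrome b, the mitochondrially encoded subunit of complex III. Its normalised count was 113000, 110000 and 113000 in the NC mimic libraries and 95500, 87900 and 95100 in the miR-21-3p mimic libraries. Every miR-21-3p mimic library lay below every NC mimic library, and the gene fell by 0.27 on the log2 scale (95% confidence interval -0.40 to -0.14; limma, Benjamini-Hochberg adjusted p = 0.0174). The limma adjusted p was 0.0668 without NC mimic replicate 1, 0.0892 without NC mimic replicate 3 and 0.0713 without miR-21-3p mimic replicate 1.

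**Figure D2:**
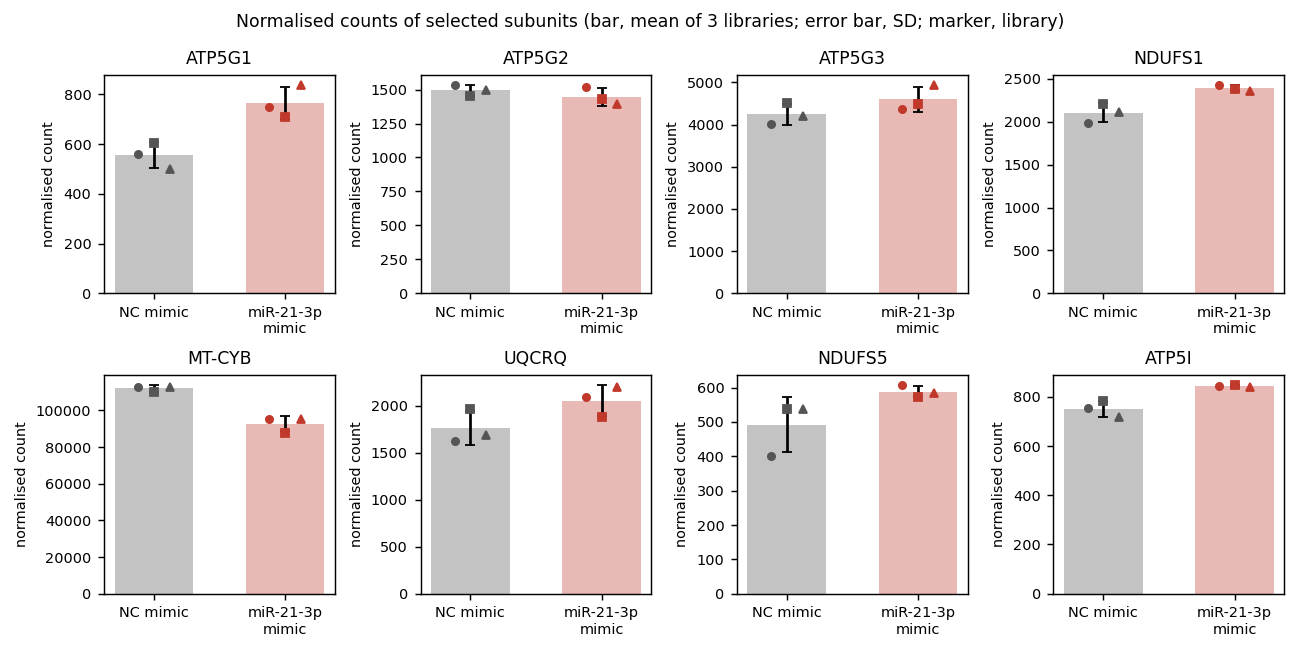
Normalised counts (y axis, from 0) of 8 subunits in the NC mimic (grey) and miR-21-3p mimic (red) groups, with bars for the mean of 3 libraries, error bars for the SD and markers for single libraries. The red markers of ATP5G1 (710 to 838) lie above the grey ones (502 to 606), those of MT-CYB (87900 to 95500) lie below (110000 to 113000), and those of ATP5G2 overlap.

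Promoter sequences of the called nuclear genes were read from RefSeq windows on GRCh38.p14, to show what lies upstream of the genes that changed. The 250 bases before the annotated start are printed 5′ to 3′ along the gene, with capitals for a match to any of 3 motifs searched on both strands: GCGCANGCG for NRF1, CCGGAAG for the ETS factor GABPA and AAGATGGCG for YY1, factors long linked to genes of the respiratory chain. The ATP5G1 window lies at chr17:48892537-48892786 on the plus strand, and the NDUFS1 window, the upstream of 2 listed for the gene, at chr2:206159445-206159694 on the minus strand.
ATP5G1: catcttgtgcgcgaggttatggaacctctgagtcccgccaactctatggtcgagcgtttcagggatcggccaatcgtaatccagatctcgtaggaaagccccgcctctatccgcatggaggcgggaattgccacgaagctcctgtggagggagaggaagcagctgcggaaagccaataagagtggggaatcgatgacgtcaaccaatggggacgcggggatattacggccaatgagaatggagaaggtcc
NDUFS1: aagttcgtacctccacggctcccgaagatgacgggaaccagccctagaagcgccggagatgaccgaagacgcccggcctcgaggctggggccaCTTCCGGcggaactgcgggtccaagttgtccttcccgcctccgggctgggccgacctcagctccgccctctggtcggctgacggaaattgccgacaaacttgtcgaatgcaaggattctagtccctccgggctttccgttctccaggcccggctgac
No match was found before the start of ATP5G1, and the NDUFS1 stretch held 1 match to the ETS letters, on the opposite strand, while the other NDUFS1 window held 0 matches. A match is a description of the letters and not a binding site.

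Of the 69 nuclear-encoded subunits, 55 were matched to a RefSeq window of 300 bases around the start. The NRF1 letters were present in 18 of these 55 genes (32.7%) and in 9.02% of all 27305 genes with a window. The ETS letters were present in 16 (29.1%) against 12.2% of all genes, and the YY1 letters in 8 (14.5%) against 2.14%. These shares describe the sequences and were not tested.

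Complex I, the entry point for electrons from NADH, had 31 nuclear-encoded subunits listed and 30 tested, since NDUFA7 was at 0 in every library. The NDUFA7 row shares 32.3% of its exon bases with AC010323.1 on the same strand in GENCODE v29. Its 0 is therefore uncertain and does not show that the gene is silent, and the cause was not tested. Only NDUFS1 passed the test (3.33%, beside 6.11% of all genes tested called higher). An unadjusted limma p under 0.05 was found in 2 of the 30 (6.67%, beside 28.5%). The log2 fold change was above 0 in 20 of the 30 (66.7%, beside 51.0%). The median was 0.052, beside 0.0044 over all genes tested. NDUFS5, an accessory subunit chosen after its values were seen, had normalised counts of 400, 538 and 538 in the NC mimic and 607, 574 and 585 in the miR-21-3p mimic libraries. The groups did not overlap, but NC mimic replicate 1 stood below the others, and the gene was not called (log2 fold change 0.27; limma, Benjamini-Hochberg adjusted p = 0.105). Without NC mimic replicate 1 the log2 fold change of NDUFS5 was 0.13 (adjusted p = 0.289), and without NC mimic replicate 2 the gene was called (adjusted p = 0.0283). NDUFB10, the most abundant nuclear-encoded subunit of the complex per kilobase of exon with a mean normalised count of 2298 per kb, gave 2467 ± 56.9 against 2450 ± 104 (SD, n = 3), which overlapped.

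Complex II oxidises succinate and is shared with the citric acid cycle. None of its 4 subunits was called by limma, by edgeR, or at an unadjusted limma p under 0.05, with 0 genes in each count. Over all genes tested, limma called 6.11% higher and 4.66% lower, and 28.5% had an unadjusted p under 0.05. The median log2 fold change of complex II was 0.038. SDHB, which holds the iron-sulfur clusters and was the most abundant per kb, gave normalised counts of 942, 930 and 952 in the NC mimic and 978, 976 and 939 in the miR-21-3p mimic libraries, which overlapped. The row named SDHD carries an identifier that GENCODE v29 gives to an overlapping gene, AP002884.3, so its values are uncertain.

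Complex III passes electrons from ubiquinol to cytochrome c. Among its 9 nuclear-encoded subunits 0 were called by limma and 0 by edgeR, beside 6.11% of all genes tested called higher and 4.66% lower by limma. An unadjusted limma p under 0.05 was found in 2 (22.2%, beside 28.5%). The median log2 fold change was 0.080, with 8 of the 9 above 0 (88.9%, beside 51.0%). UQCRQ, a small subunit described after its values were seen, had normalised counts of 1630, 1970 and 1690 against 2090, 1880 and 2200 in the miR-21-3p mimic libraries. The groups overlapped through NC mimic replicate 2 and miR-21-3p mimic replicate 2, and the log2 fold change of 0.22 was not called (limma, Benjamini-Hochberg adjusted p = 0.0749). It was called without NC mimic replicate 2 (adjusted p = 0.00439) and without miR-21-3p mimic replicate 2 (adjusted p = 0.0393). CYC1, or cytochrome c1, the most abundant nuclear-encoded subunit per kb, gave 3810 ± 180 against 4023 ± 41.6. The row named UQCR11 carries an identifier given in GENCODE v29 to AC005943.1, all of whose exon bases overlap other genes, and is uncertain.

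Complex IV, cytochrome c oxidase, hands the electrons to oxygen. None of its 11 nuclear-encoded subunits was called by limma (0) or edgeR (0), and 0 had an unadjusted limma p under 0.05. The limma shares over all genes tested were 6.11% called higher, 4.66% called lower and 28.5% at an unadjusted p under 0.05. The median log2 fold change of these subunits was 0.036. COX5B, the most abundant nuclear-encoded subunit per kb, gave normalised counts of 3277 ± 172 against 3360 ± 184 (SD, n = 3). COX6B2, an isoform known from testis, was the only listed gene of 6 tissue-restricted isoforms sought, and gave 559, 363 and 377 in the NC mimic and 379, 377 and 355 in the miR-21-3p mimic libraries. NC mimic replicate 1 stood above the other 5 libraries, and without it the log2 fold change went from -0.20 to 0.00093. COX6A1 gave lower normalised counts (429 to 512) than the row of its pseudogene COX6A1P2 (1230 to 1330), so reads of such copies may be split between rows and these levels are uncertain.

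ATP synthase had the highest median of the complexes, at 0.12 over 14 nuclear-encoded subunits. Of these, 11 were above 0 (78.6%, beside 51.0% of all genes tested). The median deviation of these subunits from their means over the 6 libraries was lowest in NC mimic replicate 1, at -0.11. It was 0.023 and -0.042 in NC mimic replicates 2 and 3. Only ATP5G1 was called (7.14%, beside 6.11% of all genes tested called higher). An unadjusted limma p under 0.05 was found in 5 subunits (35.7%, beside 28.5%). ATP5B, the catalytic beta subunit and the most abundant nuclear-encoded subunit per kb (11126 normalised counts per kb), gave 25867 ± 1079 against 25800 ± 361, with a log2 fold change of -0.0030. ATP5I, a subunit of the membrane part described after its values were seen, had normalised counts of 754, 783 and 717 against 842, 847 and 839. The groups did not overlap, and the log2 fold change of 0.17 was not called (limma, Benjamini-Hochberg adjusted p = 0.0851) except without NC mimic replicate 2 (adjusted p = 0.0471). Of the 12 ATP5 rows with a pseudogene name 8 were tested. Among these, limma and edgeR each called 0, beside 6.11% of all genes tested called higher and 4.66% lower by limma. An unadjusted limma p under 0.05 was found in 0 of them, beside 28.5%. The remaining 4 rows were at or near 0 and were not tested.

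Over all 79 nuclear-encoded members tested the median log2 fold change was 0.056, and over the 68 subunits among them 0.052, beside 0.0044 for all genes tested. Of the 79 members, 59 were above 0, against 51.0% of all genes tested. Summed over the 84 nuclear-encoded members, reads made up 0.550%, 0.587% and 0.558% of the library in the NC mimic and 0.586%, 0.575% and 0.599% in the miR-21-3p mimic. The groups overlapped through NC mimic replicate 2, with a summed CPM (reads scaled to a common library total) of 5650 ± 197 and 5867 ± 124 (SD, n = 3). The log2 ratio of the group means was 0.054, and it was 0.035 without NC mimic replicate 1 and 0.083 without NC mimic replicate 2. The median of the members was 0.033 without NC mimic replicate 1.

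The mitochondrial genome encodes 13 proteins of the chain and of ATP synthase, and all 13 mRNAs were tested. All 13 had a log2 fold change below 0, with a median of -0.099, while 49.0% of all genes tested were below 0. Without NC mimic replicate 3 the median was -0.061, and without that library or without miR-21-3p mimic replicate 1 the sign of MT-ND4L turned, which left 12 of the 13 below 0. Only MT-CYB was called (7.69%, beside 4.66% of all genes tested called lower). An unadjusted limma p under 0.05 was found in 3 (23.1%, beside 28.5%). Since these mRNAs are cut from shared transcripts, their common direction is not 13 separate observations.

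Among the complex I genes of this genome, MT-ND1 gave normalised counts of 17900, 17600 and 18200 in the NC mimic and 16300, 15400 and 17700 in the miR-21-3p mimic libraries, and the groups overlapped. MT-ND5 gave 114000, 114000 and 121000 against 108000, 108000 and 106000, and MT-ND3 gave 21800, 22000 and 23700 against 20500, 21100 and 21400. In MT-ND5 and MT-ND3 every miR-21-3p mimic library was the lower, but neither passed (limma, Benjamini-Hochberg adjusted p = 0.216 and 0.202). MT-ND6, the only one of these mRNAs read from the light strand, spread widely, from 10200 to 13000 in the NC mimic and from 9250 to 11400 in the miR-21-3p mimic libraries. The log2 fold change was -0.063 for MT-ND4, -0.039 for MT-ND2 and -0.0052 for MT-ND4L, whose reading frame overlaps MT-ND4, and in all of these the groups overlapped.

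The core subunits of complex IV, MT-CO1, MT-CO2 and MT-CO3, had log2 fold changes of -0.080, -0.12 and -0.051 and were not called. MT-CO2, which receives electrons from cytochrome c and was the most abundant member per kb, gave normalised counts of 262000, 248000 and 263000 against 240000, 241000 and 231000. Its groups did not overlap (limma, Benjamini-Hochberg adjusted p = 0.293). MT-ATP8 and MT-ATP6 are read from 1 mRNA with overlapping frames, so reads in the overlap cannot be assigned to either. MT-ATP8 gave 32700, 32700 and 34800 against 31700, 29200 and 28400, with the miR-21-3p mimic libraries all lower (log2 fold change -0.17; limma, Benjamini-Hochberg adjusted p = 0.0684), and it was called without NC mimic replicate 2 (adjusted p = 0.0449), by edgeR with upper-quartile factors, by the DESeq2 Wald test, by limma-voom and with an exon-length offset. MT-ATP6 gave a log2 fold change of -0.070, and its groups overlapped.

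**Figure D3:**
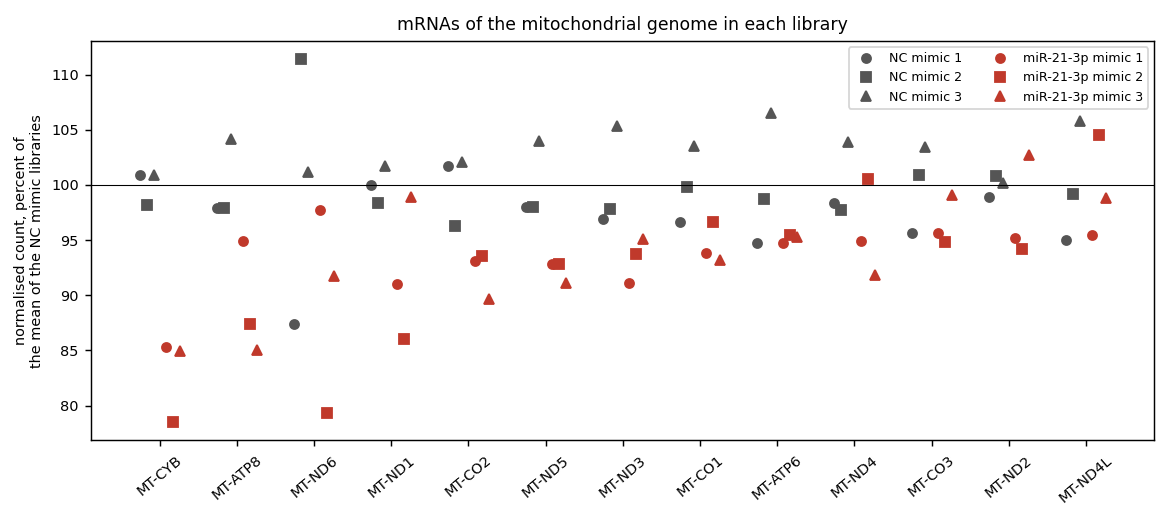
Normalised count of each mitochondrially encoded mRNA (x axis) in each library, as percent of the mean of the 3 NC mimic libraries (y axis, which does not start at 0), with grey markers for NC mimic and red for miR-21-3p mimic libraries. The red markers of MT-CYB stand apart below the grey ones, and those of MT-ND4L and MT-ND2 are mixed with them.

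In sum over the 13 mRNAs, reads made up 5.89%, 5.96% and 6.18% of the NC mimic libraries and 5.64%, 5.66% and 5.62% of the miR-21-3p mimic libraries. Every miR-21-3p mimic library lay below every NC mimic library. The summed CPM was 60080 ± 1507 and 56426 ± 217 (SD, n = 3), a log2 ratio of -0.091. The ribosomal RNAs of the same genome, which lack long poly(A) tails and were chosen after their values were seen, were not called. MT-RNR1 gave 30733 ± 493 against 28700 ± 721, and MT-RNR2 gave 758333 ± 40624 against 681000 ± 39686, and their part in the result was not tested. Of all 11 ribosomal and transfer RNA rows of this genome, 10 were below 0 (90.9%, beside 49.0% of all genes tested), with a median of -0.16. Limma and edgeR each called 0 of these rows, beside 4.66% of all genes tested called lower by limma. The lowest, MT-TT, a transfer RNA row also described after its values were seen, had normalised counts of 130, 142 and 162 against 107, 125 and 91.5, without overlap (log2 fold change -0.43; limma, Benjamini-Hochberg adjusted p = 0.0695), and it was called without miR-21-3p mimic replicate 2 only (adjusted p = 0.0395).

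Related genes were counted from lists. The naming pattern leaves out 7 listed genes linked to the chain or to ATP synthase: NDUFAB1, NDUFA4L2, USMG5, C14orf2, C15orf48, CYCS and ATPIF1. All 7 were above 0 (beside 51.0% of all genes tested) and 1, CYCS or cytochrome c, was called (14.3%, beside 6.11%). CYCS had normalised counts of 3240, 4100 and 3630 in the NC mimic and 4610, 4360 and 4770 in the miR-21-3p mimic libraries, without overlap, and rose by a log2 fold change of 0.33 (limma, Benjamini-Hochberg adjusted p = 0.0167). It was not called without NC mimic replicate 3, miR-21-3p mimic replicate 1 or miR-21-3p mimic replicate 3 (adjusted p = 0.0758, 0.0748 and 0.0696). NDUFAB1, the acyl carrier subunit of complex I, chosen after its values were seen, was not called (log2 fold change 0.24; adjusted p = 0.0641). Its log2 fold change was 0.15 without NC mimic replicate 1 (adjusted p = 0.180), and it was called without NC mimic replicate 2 (adjusted p = 0.0141). Of 17 complex I assembly factors and 4 of complexes II and III, 0 were called by limma or edgeR, with 3 (17.6%) and 0 at an unadjusted limma p under 0.05, beside 28.5% of all genes tested. Of the 17, 13 were above 0 (76.5%, beside 51.0%), with a median of 0.11, and of the 4, 3 were above 0, with a median of 0.074. The most abundant of each, COA1 and TTC19, had log2 fold changes of -0.067 and 0.042. With 1 library left out these ranged from -0.12 to -0.0071 and from 0.022 to 0.054. None of 3 ATP synthase assembly factors was called by limma (0) or edgeR (0), with 1 (33.3%) at an unadjusted limma p under 0.05. CMC2, of the cytochrome oxidase assembly list, was the only one of 21 called (4.76%), with 564, 559 and 553 against 733, 712 and 736 (log2 fold change 0.38; limma, Benjamini-Hochberg adjusted p = 0.00511), and it was called without each library in turn.

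Among 18 genes of electron transfer and coenzyme Q, PDSS1, which helps to build the coenzyme Q tail, and ETFB, of the electron transfer flavoprotein, were called higher (11.1%, beside 6.11% of all genes tested). ETFB had normalised counts of 422, 399 and 419 against 506, 506 and 494 (log2 fold change 0.28; limma, Benjamini-Hochberg adjusted p = 0.0231), and PDSS1 had 124, 162 and 113 against 186, 166 and 237 (log2 fold change 0.56; adjusted p = 0.0399). Of 14 genes of mitochondrial DNA replication and transcription, SSBP1, the mitochondrial single-stranded DNA-binding protein, was called (7.14%), with 938, 1050 and 972 against 1140, 1160 and 1180 (log2 fold change 0.23; limma, Benjamini-Hochberg adjusted p = 0.0250). The groups did not overlap in any of these genes, as in 16.5% of all genes tested in this direction. These calls were lost without NC mimic replicate 3 and without miR-21-3p mimic replicates 1 and 3, and those of PDSS1 and SSBP1 also without NC mimic replicate 1, with limma adjusted p up to 0.162 for PDSS1, 0.1002 for ETFB and 0.109 for SSBP1.

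Of 13 regulators of mitochondrial biogenesis, MYC and the coactivator PPRC1 were called higher (15.4%, beside 6.11% of all genes tested). MYC had normalised counts of 3180, 2730 and 2740 against 3760, 3860 and 3590 (log2 fold change 0.38; limma, Benjamini-Hochberg adjusted p = 0.00559) and was called without each library in turn. Its groups did not overlap. PPRC1 had 868, 955 and 771 against 1130, 963 and 1200 (log2 fold change 0.34; limma, Benjamini-Hochberg adjusted p = 0.0322). The median of the list was 0.0062. Of the 13, 7 were above 0 (53.8%, beside 51.0% of all genes tested) and 6 below, and 0 were called lower. An unadjusted limma p under 0.05 was found in 4 (30.8%, beside 28.5%), of which 2 were higher and 2 lower. The groups did not overlap in 3 higher and 3 lower genes (23.1% each, beside 16.5% and 14.8%).

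Among 18 genes of the citric acid cycle and pyruvate dehydrogenase, FH (log2 fold change 0.21) and MDH2 (0.17) were called (11.1%, beside 6.11% of all genes tested), and 15 were above 0 (83.3%, beside 51.0%), with a median of 0.10. Among 24 import, channel and chaperone genes, HSPA9 (0.27), PHB (0.27) and HSPD1 (0.17) were called (12.5%), 21 were above 0 (87.5%), and the median was 0.15. These are calls near the threshold: the limma adjusted p with Benjamini-Hochberg correction was 0.0479 for FH, 0.0424 for MDH2, 0.0312 for HSPA9, 0.0342 for PHB and 0.0385 for HSPD1. Like PPRC1, they were lost without NC mimic replicate 1, NC mimic replicate 3, miR-21-3p mimic replicate 1 or miR-21-3p mimic replicate 3, with adjusted p up to 0.190 for MDH2, and FH and MDH2 were lost without miR-21-3p mimic replicate 2 as well. FH, MDH2 and HSPD1 were also not called by edgeR with upper-quartile factors or by limma with an exon-length offset, and FH was not called by edgeR on library totals alone or with every detected gene tested.

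**Figure D4:**
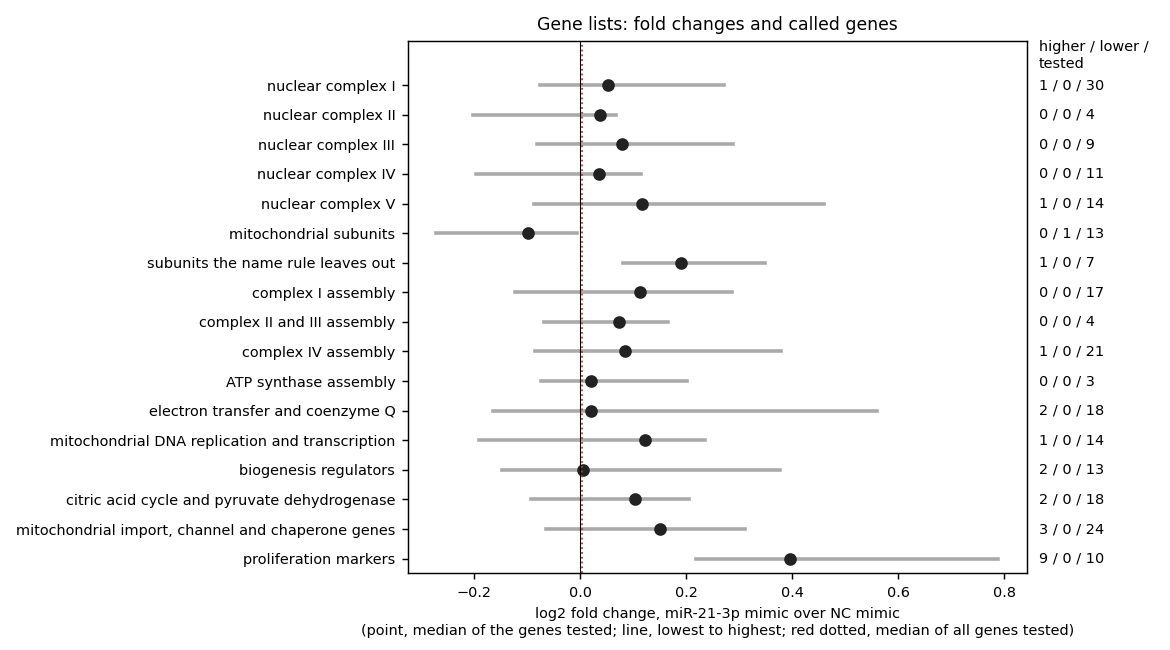
Median log2 fold change (points, x axis, miR-21-3p mimic over NC mimic) of the genes tested in each list, with lines from the lowest to the highest gene and the counts called higher, called lower and tested at the right. The mitochondrially encoded subunits lie below 0, the nuclear-encoded complexes lie between 0.036 and 0.12, and the proliferation markers lie at 0.40.

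Proliferation markers moved with the groups. Of 10 markers, 9 were called higher (90.0%, beside 6.11% of all genes tested) and 0 lower, with a median log2 fold change of 0.40, and RRM2, of deoxynucleotide synthesis, had normalised counts of 1340, 1980 and 1550 against 2650, 2620 and 3060 (log2 fold change 0.79; limma, Benjamini-Hochberg adjusted p = 0.00334). CCNB1 (0.44), TYMS (0.43) and CDK1 (0.42) were the next largest (limma, Benjamini-Hochberg adjusted p = 0.00785, 0.00907 and 0.00560), and TYMS was not called without NC mimic replicate 3 (adjusted p = 0.0549). Their summed share of reads was 0.248%, 0.305% and 0.271% in the NC mimic and 0.343%, 0.335% and 0.367% in the miR-21-3p mimic libraries, MKI67 being the most abundant. NC mimic replicate 1 was the lowest and NC mimic replicate 2 the highest of their group in this sum, as in many nuclear-encoded subunits. The part of proliferation in the subunit results was not tested.

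Of the 9 listed keratinocyte markers, 1 (11.1%, beside 6.11% of all genes tested), KRT6A, was called higher (log2 fold change 0.34; limma, Benjamini-Hochberg adjusted p = 0.00206) and the median was -0.033. Of the markers of other cell types, those matched were MITF and PMEL for melanocytes, COL1A1 for fibroblasts, CD14 for immune cells and VWF for endothelium, and 0 of these 5 were called by the main limma test or by edgeR with TMM factors. COL1A1 had normalised counts of 560, 390 and 478 against 372, 378 and 364 (limma, Benjamini-Hochberg adjusted p = 0.0641), and was called without NC mimic replicate 2 (adjusted p = 0.00186), by edgeR with upper-quartile factors and by the DESeq2 Wald test. Without NC mimic replicate 1 its log2 fold change went from -0.34 to -0.22 (adjusted p = 0.211).

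**Figure D5:**
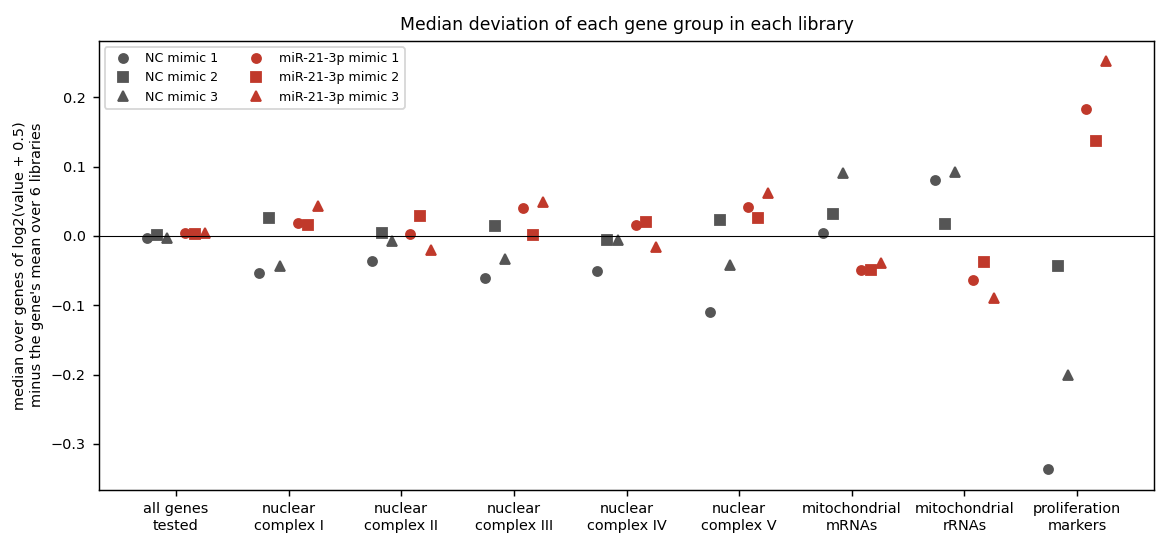
Median over the genes of each group (x axis) of log2(normalised count + 0.5) minus the gene's mean over the 6 libraries (y axis), with a marker for each library. NC mimic replicate 1 is lowest in complexes I, II, III, IV and V and in the proliferation markers, and the miR-21-3p mimic libraries lie below the NC mimic libraries for mitochondrial mRNAs.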

How the data were processed

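RNA was extracted with a mirVana kit and sequenced, by the sample labels, from stranded polyA libraries of HaCaT cells, 3 per group. The authors named bcl2fastq 2.18.12, cutadapt 1.15, TopHat2 2.1.1, featureCounts, Subread 1.5.2 and DESeq2 in their processing notes; genome build and annotation are not given in the sources used here. The deposited signal values were counts divided by size factors and rounded to 3 significant digits. Whole reads were recovered for 100% of values under 100 (tolerance 0.1 read), and values above carry a rounding error of up to 0.5%. Raw counts had been planned for; limma 3.58.1 with a mean-variance trend was therefore run on log2(value + 0.5), after edgeR 4.0.16 filterByExpr (minimum count 10, minimum total 15), in R 4.3.3, and edgeR on recovered reads was added. Fold changes are on the log2(value + 0.5) scale and understate changes of low genes. CPM are recovered reads scaled to a common library total. Alternatives were other scalings, filters, tests (DESeq2 1.42.0, limma-voom), a replicate block, an exon-length offset and leaving out libraries. Exon lengths were unions of GENCODE v29 exons, which can be longer than a single transcript, so the ranks per kb depend on them. By mean normalised count alone, NDUFV1 (5863), SDHA (2475), UQCRC2 (4477) and COX4I1 (7073) led the nuclear-encoded subunits of complexes I, II, III and IV. They stood above NDUFB10 (2458), SDHB (953), CYC1 (3917) and COX5B (3318), while ATP5B led complex V either way. The test was also run on simulated data, and the outcome is not reported here and is not used for any result. P-values measure the spread between these 3 libraries a group. Members and lists were chosen with earlier results of these data known. Genes were named by a rule that took called members, the most abundant nuclear-encoded subunit of each complex per kb and all mitochondrially encoded members. It also took listed tissue-restricted isoforms, and up to 4 called genes, or else the most abundant, of other lists. Outside this rule, UQCRQ, NDUFS5, ATP5I, ATP5G2, ATP5G3, NDUFAB1, MT-RNR1, MT-RNR2 and MT-TT were chosen after their values were seen.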

Additional observations from a re-analysis of the deposited data

How the results depend on the processing

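The medians of nuclear-encoded and mitochondrially encoded members kept their sign under all 21 alternatives. The number of genes called ranged from 176 to 2953 when 1 library was left out, the members called higher from 0 to 8 and the members called lower from 0 to 2. The mitochondrially encoded median ranged from -0.11 to -0.061 over the same fits. The edgeR test with TMM and pseudocounts of 1 and 5 were also chosen after seeing the data and kept the 3 member calls. Members called lower numbered 2 with upper-quartile factors, the DESeq2 Wald test, limma-voom and an exon-length offset, MT-ATP8 being added each time. Over all genes tested, these settings called 839, 733, 735 and 688 genes lower. The cause of the added call was not tested. With an exon-length offset and a replicate block 1007 genes were called and 1 member higher. Without both NC mimic replicate 2 and miR-21-3p mimic replicate 3, a setting chosen after seeing the data, 4 members were called higher and 2 lower, while 1194 of all 14792 genes tested were called higher and 979 lower, so calls rose in general. Same-numbered libraries did not deviate together (correlations of 0.024, -0.534 and -0.399), and not every library correlated best with its own number. Deviations from the mean of 3 libraries offset one another, so these correlations cannot show whether same-numbered libraries were prepared together. With a replicate block 1191 genes were called by limma and 1199 by edgeR, 1 member was called higher by either (ATP5G1), and 0 members were called lower by limma and 1 (MT-CYB) by edgeR; COL1A1 was called by edgeR with the block. The calls of NDUFS1, ETFB, FH, MDH2, PHB and HSPD1 were lost with the block under both limma and edgeR, and those of NDUFS1, ETFB, FH, MDH2, PHB, HSPD1, PDSS1 and SSBP1 with the block and an exon-length offset. Genes of low counts, such as ATP5O and UQCR11, have wide intervals at this depth. The ATP5O row, with a mean normalised count of 48.1, also shares 19.6% of its exon bases with AP000311.1 in GENCODE v29. Its level is therefore uncertain, though it is counted among the subunits of complex V.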
